A study of Homo sapiens with 2 samples.

Results

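The 8 genes described here, CDKN1A, CDKN1B, CDKN1C, CDKN2A, CDKN2B, CDKN2C, CDKN2D and CDKN3, are inhibitors of cyclin-dependent kinases (CDKs) or, for CDKN3, a phosphatase that acts on them. They were taken from the 17280 genes named on a set of 2 human promoter tiling arrays, as every probe whose annotation gives a distance to the start of a member. This rule gave 305 of 474411 genomic probes. The chromatin came from Meg-01, a megakaryocytic leukemia line of human origin, which had been grown in culture and not treated. DNA pulled down with the C-20 antibody against the transcription factor GATA1 (the IP) was labeled with Cy5, DNA pulled down with normal goat IgG was labeled with Cy3, and both were hybridized together after linker-mediated amplification. All of the material thus comes from 1 cell line without any treatment, and the comparison is between antibodies within a hybridization. The chIP1 array held CDKN1A, CDKN2A, CDKN2B and CDKN2C, and the chIP2 array held CDKN1B, CDKN1C, CDKN2D and CDKN3. Each probe was measured once, with no replicate and no dye swap, so no value below carries a replicate error or a test. A binding assay carries no expression values, so the cell type was not checked against marker genes.

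CDK inhibitors brake the cell cycle. The Cip/Kip proteins p21 (CDKN1A), p27 (CDKN1B) and p57 (CDKN1C) bind CDK and cyclin together, whereas the INK4 proteins p16 (CDKN2A), p15 (CDKN2B), p18 (CDKN2C) and p19 (CDKN2D) bind CDK4 and CDK6 and keep them from the D-type cyclins. CDKN2A also makes ARF, a protein that restrains MDM2 and so protects p53, from a separate first exon. CDKN3 removes the activating phosphate of CDK2. Megakaryocytes leave the ordinary cycle and replicate their DNA without dividing, and GATA1, which binds DNA at GATA sequences, is needed for their maturation.

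The promoter sequences below show the DNA next to the windows that leaned to the IP, and the GATA letters found in the set. They are the 250 bases before the RefSeq start (GRCh38.p14), read 5′ to 3′ on the strand of the gene. The array gives its own coordinates, whose build is not given in the sources used here, so its coordinates were not joined with those of RefSeq and the starts may differ. The first 4 genes had an IP-side window, defined further on, with at least 1 probe inside the 250 bases before the array's start. CDKN2C also met this rule, through the probe at position -221 at the edge of a window centered at -535. RefSeq gives CDKN2C 3 promoters, which were not matched to the array's starts, so its sequence is not shown. No GATA letters on either strand occur in those 3 promoters or in the 4 sequences printed here, which therefore carry no capitals.
CDKN3, chr14:54396757-54397006, + strand: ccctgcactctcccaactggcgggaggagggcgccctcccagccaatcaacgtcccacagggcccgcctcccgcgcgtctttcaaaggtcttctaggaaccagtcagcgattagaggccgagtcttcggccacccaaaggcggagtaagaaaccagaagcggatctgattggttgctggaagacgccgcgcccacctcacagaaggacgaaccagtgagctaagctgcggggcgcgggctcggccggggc
CDKN1B, chr12:12717118-12717367, + strand: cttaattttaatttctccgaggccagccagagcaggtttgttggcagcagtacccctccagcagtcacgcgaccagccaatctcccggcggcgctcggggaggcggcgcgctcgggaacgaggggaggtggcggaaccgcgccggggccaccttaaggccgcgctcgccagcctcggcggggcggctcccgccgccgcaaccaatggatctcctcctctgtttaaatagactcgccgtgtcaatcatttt
CDKN2D, chr19:10568980-10569229, - strand: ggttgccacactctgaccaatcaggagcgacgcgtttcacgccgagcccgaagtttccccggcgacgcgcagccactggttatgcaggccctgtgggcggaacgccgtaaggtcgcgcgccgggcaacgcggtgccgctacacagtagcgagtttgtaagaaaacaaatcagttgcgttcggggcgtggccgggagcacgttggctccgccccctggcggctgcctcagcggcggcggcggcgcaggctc
CDKN2B, chr9:22009306-22009555, - strand: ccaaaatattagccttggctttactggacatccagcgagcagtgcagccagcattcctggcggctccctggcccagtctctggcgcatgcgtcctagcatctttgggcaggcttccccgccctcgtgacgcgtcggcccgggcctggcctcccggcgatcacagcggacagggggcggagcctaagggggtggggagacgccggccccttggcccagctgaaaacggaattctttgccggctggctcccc
The other sequences are those of the set that do hold GATA or its reverse complement TATC, shown in capitals. Neither gene had an IP-side window.
CDKN1A, chr6:36678464-36678713, + strand: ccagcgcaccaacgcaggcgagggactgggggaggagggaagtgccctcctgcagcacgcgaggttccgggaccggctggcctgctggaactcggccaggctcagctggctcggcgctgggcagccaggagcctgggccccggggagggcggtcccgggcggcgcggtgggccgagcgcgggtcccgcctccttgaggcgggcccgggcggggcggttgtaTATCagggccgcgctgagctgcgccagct
CDKN2A, p16 start, chr9:21974858-21975107, - strand: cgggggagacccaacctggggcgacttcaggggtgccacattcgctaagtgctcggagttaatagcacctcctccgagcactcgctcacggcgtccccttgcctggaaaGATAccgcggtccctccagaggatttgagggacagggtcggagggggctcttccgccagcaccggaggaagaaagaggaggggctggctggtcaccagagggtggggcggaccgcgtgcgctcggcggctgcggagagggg
In RefSeq, 7 of the 8 genes matched, with 10 such promoters, and CDKN1C did not. The longer words that GATA factors prefer were searched on both strands. With A in front, these are AGATAA and the same word ending in G, namely AGATAG. With T in front, they are TGATAA and its form with a final G, that is TGATAG. They were in 0 of the 10 promoters and in 22.3% of all 35116 promoters of this length. The core GATA, which lies inside each of these words, was in 2 of the 10 and in 45.6% of all. At CDKN1A the core starts at position -29 and overlaps a TATA-like stretch, and at the p16 start it lies at position -141. The GC content of the 10 promoters ran from 45.6% to 77.2%, and 8 of them were above the median of 58% over all promoters. A match is only a match of letters, and the arrays also covered DNA outside these 250 bases.

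Each probe is given as log2(IP/IgG), from processed intensities and on a scale where its array has a median of 0, so that 1 means 2-fold toward the IP. A window is the mean of 3 adjacent probes, placed by the distance of its center probe to the annotated start, with negative positions upstream. A window at 1 or above is called IP-side, and a window at -1 or below is called IgG-side. All 305 probes passed the filter, which asked for a signal well above background in at least 1 channel, and none was saturated. In both channels 303 of them were well above background. The median IP signal of a gene ran from 527 at CDKN1C to 1220 at CDKN2D, and the median IgG signal from 393 at CDKN2C to 607 at CDKN2D. The negative control spots had IP medians of 342 and 340 on the arrays, and an IgG median of 303 on each. By these medians every locus, the 9p21 region of CDKN2A and CDKN2B included, lay above the negative controls. CDKN2D was the brightest, and its median log intensity was above 87.2% of the probes of its array.

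**Figure D1:**
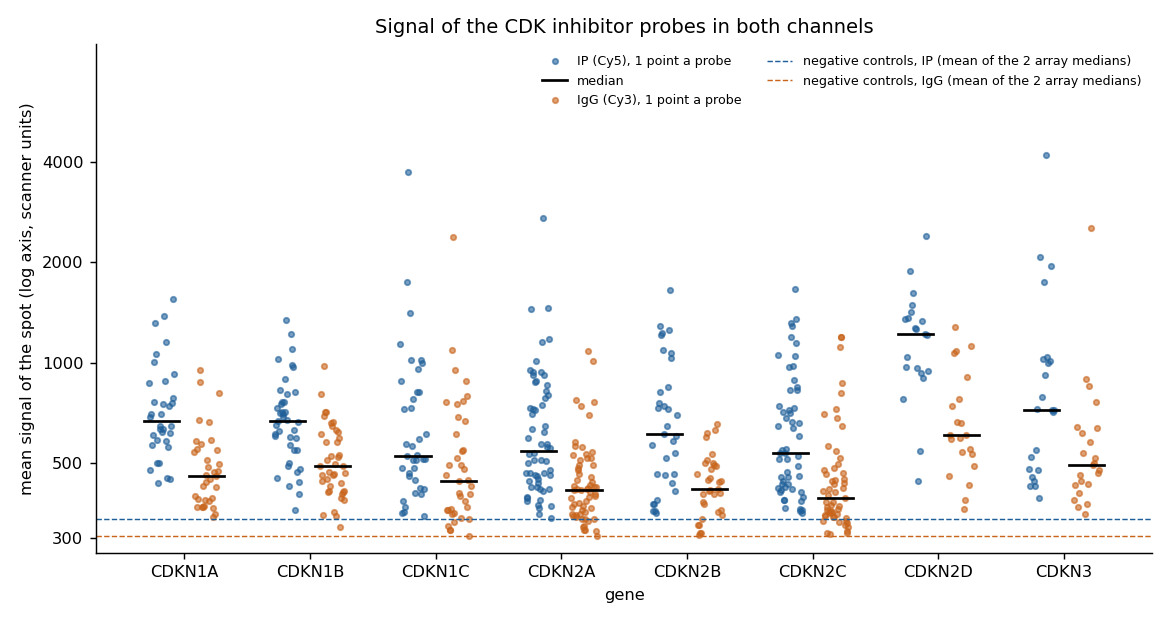
Mean spot signal in scanner units (log axis) of each probe of the 8 genes, IP channel in blue and IgG channel in orange, with black bars at the gene medians and dashed lines at the negative control medians. The gene medians of the IP channel sit between 527 and 1220, above the negative controls near 340.

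Of the 8 genes, 5 had an IP-side window: CDKN1B, CDKN2B, CDKN2C, CDKN2D and CDKN3. Over all 17054 genes with a window this share was 57.1%, so 5 of 8 (62.5%) is near the background. An IgG-side window was found at 3 of the 8, CDKN1B, CDKN2A and CDKN2C, against 52.9% of all genes. Both kinds occurred at CDKN1B and CDKN2C, and neither at CDKN1A and CDKN1C. The median of the highest window was 1.14 for the 8 genes and 1.09 for all genes. The median of the lowest window was -0.97 for the 8 genes and -1.05 for all genes. The 8 genes had more windows to choose from, with a median of 33.5 against 23 for all genes.

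Of the 279 windows of the 8 genes, 14 (5.02%) were IP-side, against 7.62% of all 415403 windows, and 7 (2.51%) were IgG-side, against 9.65%. The members thus had a smaller share of windows past the threshold on both sides than the arrays as a whole. The lowest value on the IP side that passed was 1.03 at CDKN3, and the highest that did not was 1.00 at CDKN2D (0.995 before rounding). On the IgG side these values were -1.01 at CDKN2A and -0.99 at CDKN2B.

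**Figure D2:**
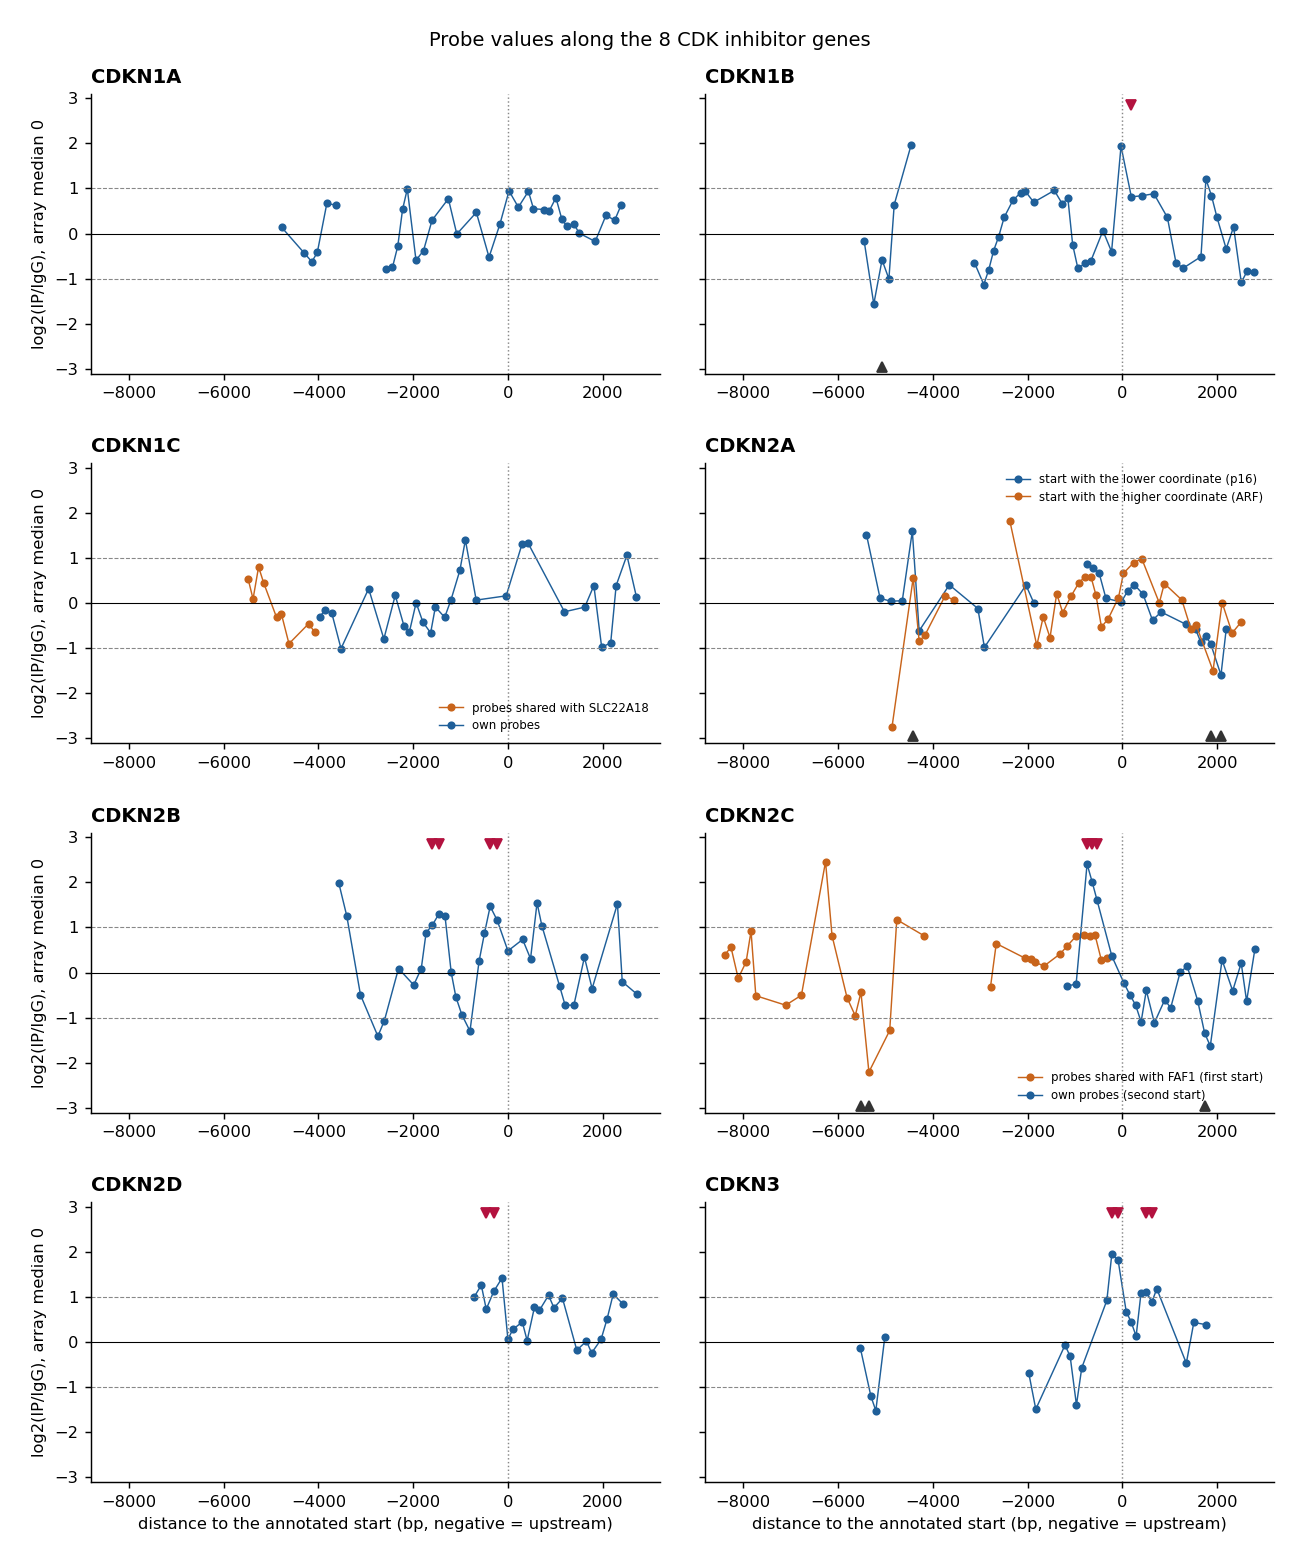
Log2(IP/IgG) of each probe against its distance to the annotated start (bp), 1 panel a gene, with lines joining probes within 1000 bp. Red triangles at the top mark IP-side windows and dark triangles at the bottom IgG-side windows. The 3 high probes of CDKN2C between its starts and the run of high probes around the CDKN3 start stand out.

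Among the 3 Cip/Kip genes, CDKN1B (p27) had an IP-side window, and CDKN1A (p21) and CDKN1C (p57) stayed under the threshold. Their highest windows were 0.82 at CDKN1A, 1.20 at CDKN1B and 0.93 at CDKN1C.

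CDKN1B had 41 probes on chromosome 12 from base 12756098 to 12764388 in the array's coordinates. Its IP-side window was centered at position 190 and covered bases 12761520 to 12762013, across the start. The 3 probes read 1.94, 0.81 and 0.84, so the probe at position -28 carried the window and the others alone would not have reached 1. A longer stretch of 8 probes from position -2492 to -1150 was above 0 throughout, between 0.36 and 0.96, without a probe at 1. Its IgG-side window, of mean -1.05, lay far upstream at position -5070, with its lowest probe at -1.56 and its highest at -0.58. The mean over all 41 probes was 0.05 ± 0.85 (SD over probes), with 20 probes above 0.

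CDKN1A, a well-known target of p53, had 34 probes on chromosome 6, from base 36749657 to 36756881. Its highest window, at position 217, had probes at 0.94, 0.58 and 0.94, and was higher than 27.3% of the genes of its array. Its 5 probes within 500 bp of the start averaged 0.43, from -0.52 to 0.94. From position -174 to 1500, 12 probes in a row were above 0, between 0.01 and 0.94 with a mean of 0.48. The lowest window was -0.61 at position -2439. Over all probes the mean was 0.20 ± 0.52 (SD over 34 probes), above 72.3% of the genes of its array.

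CDKN1C, an imprinted gene at 11p15, had 38 probes on chromosome 11, from base 2860807 to 2869043. Its highest window, of mean 0.93, was centered at position 294 inside the gene, with probes at 1.34, 1.30 and 0.16. These were the probes within 500 bp of the start, and only 3 were placed there. The stretch upstream leaned to the IgG: 9 probes in a row from position -3525 to -4884 were below 0, between -1.01 and -0.15. Part of that stretch lies in the 9 probes that the array also assigns to SLC22A18, the neighboring transporter gene, whose own highest and lowest windows were 0.76 and -0.67. The lowest window of CDKN1C and of SLC22A18 is the same window.

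Among the 4 INK4 genes, 3 had an IP-side window and 2 an IgG-side window. CDKN2C (p18) had the highest window of the 8 genes, CDKN2D (p19) the most even signal, and CDKN2A (p16 and ARF) no window at 1.

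CDKN2C had 55 probes on chromosome 1, from base 51137982 to 51150467, and distances to 2 starts, near bases 51146400 and 51147600. The highest window lay between these starts, at position -639 from the second, and covered bases 51146873 to 51147126. Its probes read 2.40, 2.02 and 1.61, a mean of 2.01 or 4.03-fold, higher than 91.2% of the genes of the array. The windows on either side overlap it and read 1.39 and 1.33. The signal ended sharply: the outer probes of those windows were at -0.25 and 0.36. The mean IP signal of the 3 probes was 783 and the mean IgG signal 358. Negative control medians on this array were 342 and 303, so the IgG signal under this ratio was not far above them. In combined intensity the window was near the middle of the array, above 49.6% of windows.

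The body of CDKN2C leaned the other way. From position 38 to 1021, 8 probes in a row were below 0, between -1.11 and -0.24. A window at position 1736 was IgG-side, with a mean of -1.20, but was dim, with an intensity above 7.72% of windows. Within 500 bp of the second start 5 probes averaged -0.44. The 2 probes annotated within 500 bp of the first start, both upstream of it, averaged 0.30. The probes from bases 51146432 and 51146642 lie just inside the first start by its coordinate, but carry a distance to the second start only. They read -0.30 and -0.25, so the annotated distances do not give a full view of the first start. Over both starts, by the annotated distances, the mean was -0.23, above 14.7% of the genes of the array. The first start shares its 31 upstream probes with FAF1, a gene read in the opposite direction that encodes a FAS-associated factor. In those shared probes 13 in a row from position -2660 to -325 were above 0, between 0.14 and 0.84, and the lowest window of the gene, -1.31, lay at position -5347. That window is also the lowest of FAF1. The highest window of FAF1 was 0.92, since the 4.03-fold window was not assigned to it.

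CDKN2B (p15) had 33 probes on chromosome 9, from base 21996565 to 22002914, and separate IP-side stretches. The first, centered at position -1456 over bases 22000620 to 22000942, had probes at 1.26, 1.30 and 1.05 and a mean of 1.20. The second, centered at position -378 over bases 21999520 to 21999841, had probes at 1.16, 1.47 and 0.87 and a mean of 1.16. Between them the probes fell to -1.30 at position -804. The 6 probes within 500 bp of the start were all above 0, from 0.31 to 1.47, with a mean of 0.84, above 85.5% of the genes of the array. The lowest window was -0.99 at position -2747.

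CDKN2A had 60 probes on chromosome 9, from base 21962817 to 21989381, placed around the p16 start near base 21965000 and the ARF start near base 21984500. The starts gave similar values. At the p16 start the highest window was 0.77 at position -614, and the 6 probes within 500 bp averaged 0.28. At the ARF start the highest window was 0.84 at position 237, with probes at 0.98, 0.89 and 0.66, and the 6 probes within 500 bp averaged 0.29. The probes placed far inside their annotated start were low. Beyond 1500 bp inside either start, 1 of 11 probes was above 0 and their mean was -0.75, against -0.12 over all genes. Beyond 2000 bp upstream of the annotated start 11 of 17 probes were above 0, with a mean of 0.04 against -0.18 over all genes. Upstream here does not mean outside the gene. The probes from position -2033 to -5399 of the p16 start lie between the starts, inside the ARF start. They ran from -0.98 to 1.59. The IgG-side windows were at positions 1864 and 2081 from the p16 start, of mean -1.07 and -1.02, and at position -4413 from the ARF start, of mean -1.01. The last of these rests on a probe of -2.75 in a dim window whose intensity was above 1.94% of windows. The windows at positions 1864 and 2081 were dim as well, with intensities above 13.3% and 17.3% of windows. The part of dimness in the low values far inside the annotated starts was not tested.

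CDKN2D had the fewest probes, 21 on chromosome 19, reaching up to position -716. Its highest window, at position -303 over bases 10540761 to 10541146, had probes at 1.42, 1.12 and 0.73 and a mean of 1.09. The locus was high almost throughout. Of its 21 probes 19 were above 0, the lowest was -0.24, and 14 in a row from position 1148 to -716 were above 0. The mean over all probes was 0.60 ± 0.50 (SD over 21 probes), above 97.2% of the genes of the array, and the lowest window, -0.13, was above 93.8% of them. These ranks compare unlike coverage, since CDKN2D had no probes beyond 2000 bp upstream, where all genes averaged -0.18. Within 500 bp of the start its 7 probes averaged 0.58, above 74.5% of the genes of the array. CDKN2D was also the brightest of the 8 loci in both channels, and the part of brightness in its values was not tested.

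CDKN3 stood second in the order and had the clearest peak at a start. It had 23 probes on chromosome 14, from base 53927918 to 53935280. The highest window, at position -222 over bases 53933126 to 53933408, had probes at 0.92, 1.95 and 1.81, a mean of 1.56 or 2.95-fold. It was higher than 79.5% of the genes of the array. A further pair of IP-side windows inside the gene, at positions 503 and 626, had means of 1.03 and 1.06. From position -327 to 727 all 10 probes were above 0, between 0.13 and 1.95, with a mean of 1.02. Upstream of this block, 6 probes in a row from position -1974 to -856 were below 0, with a mean of -0.75. The 7 probes within 500 bp of the start averaged 1.00, above 93.0% of the genes of the array and the highest of the 8 members.

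**Figure D3:**
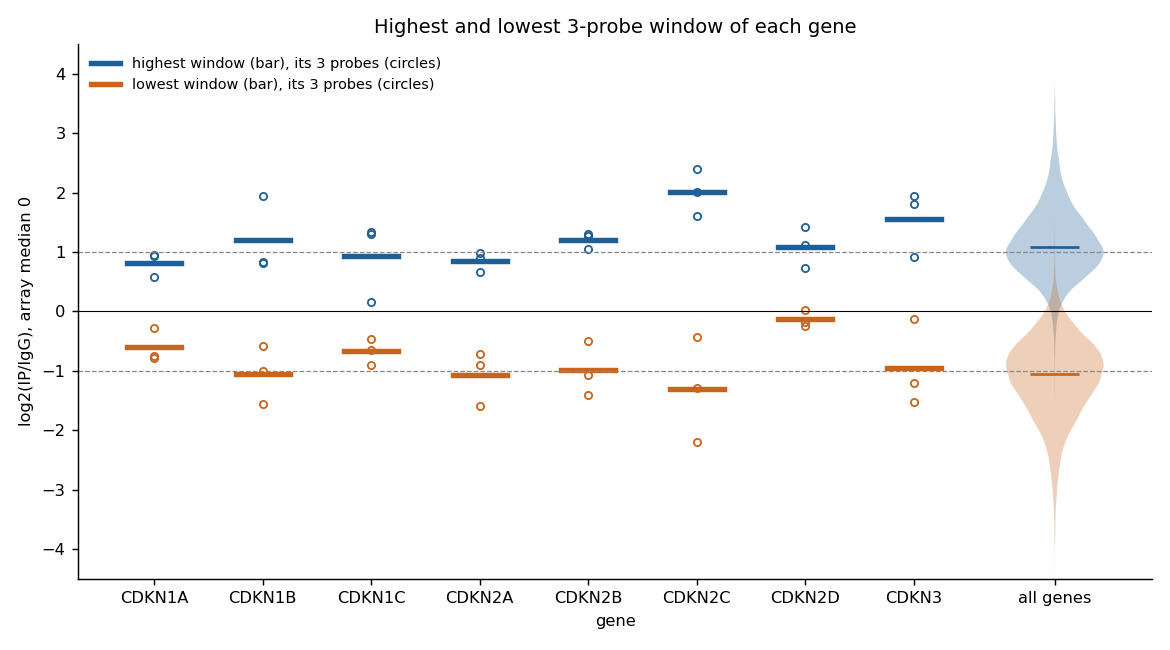
Highest (blue) and lowest (orange) 3-probe window of each gene as bars, with their 3 probes as circles, on the log2(IP/IgG) scale. The violins at the right give all 17054 genes, with bars at their medians of 1.09 and -1.05. The highest windows run from 0.82 at CDKN1A to 2.01 at CDKN2C, and the lowest window of CDKN2D sits near 0.

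In order of the highest window the genes stood as CDKN2C, CDKN3, CDKN2B, CDKN1B, CDKN2D, CDKN1C, CDKN2A and CDKN1A. As a rough scale for the gaps, 2453 control probes spotted once on each array served as repeats. Their values differed between the arrays with an SD of 0.19. The step from CDKN2C to CDKN3 was 0.45 and that from CDKN3 to CDKN2B was 0.35, both larger than this spread. The other 5 steps ran from 0.01 to 0.15 and were smaller than it. This spread covers repeats on the arrays and not separate pull-downs. It is for single probes, whereas the steps compare means of 3 probes. Those means are also the highest of unlike numbers of windows, from 19 at CDKN3 to 53 at CDKN2C. The spread therefore does not settle which steps are real.

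By position, the mean of the members' probes was above that of all genes in most steps of distance, near the start and farther away, as a description without a test. These means pool probes, so a gene with more probes weighs more. From -4000 to -2000 the means were 0.01 for the members and -0.18 for all genes, and from -2000 to -500 they were 0.20 and -0.04. In the latter step CDKN2C gave 14 of the 69 probes, with a mean of 0.74. Those include its highest window, which lies inside its first start. The gene means there ran from -0.75 at CDKN3 to 1.13 at CDKN2D. In the 500 bp before the start their 26 probes averaged 0.55 ± 0.74 (SD over probes), against 0.27 over all genes. From 500 to 1000 bp inside, the means were 0.46 and 0.09. From 1000 to 2000 bp inside was the step where the members were lower, with -0.23 against -0.06. From 2000 to 3000 bp inside they were again higher, with -0.03 against -0.13. The mean within 500 bp of the start was above the median of all genes (0.30) in 6 of the 8 genes, the exceptions being CDKN2A and CDKN2C. Of the 14 IP-side windows of the members, 12 had their center within 1000 bp of a start, against 41.9% of all IP-side windows on the arrays. Of their 7 IgG-side windows none did, against 18.1%. Of the 106 member windows within 1000 bp of a start 11.3% were IP-side, against 9.31% of all such windows, and 0 were IgG-side, against 5.1%. Windows that overlap share probes, so these counts are not independent observations.

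**Figure D4:**
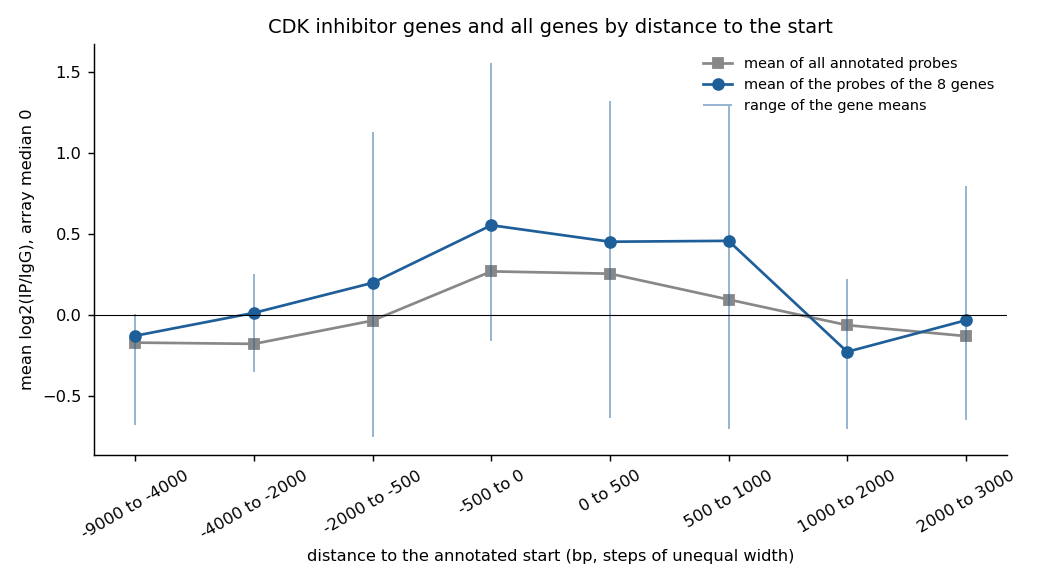
Mean log2(IP/IgG) of the members' probes (blue) and of all annotated probes (gray) in steps of distance to the annotated start (bp), with vertical lines for the range of the gene means. The members' mean is highest in the 500 bp before the start, at 0.55 against 0.27, and the ranges are wide.

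The calls moved with the rule used. With normexp, a background correction that draws dim ratios toward 0, 5 of the 8 genes still had an IP-side window while the share of all genes fell to 33.1%. Each of the 5 was a gene named above, but CDKN1B passed only barely, at 1.001. The highest window of CDKN2C was 1.54 with normexp, against 2.01 without it. On the IgG side normexp left 0 of 8, against 23.9% of all genes. The lowest windows of CDKN2A and CDKN2C were then -0.66 and -0.80. Windows of 5 probes gave 3 IP-side genes (34.1% of all genes) and 1 IgG-side gene (33.5%). Those IP-side genes were CDKN2C at 1.23, CDKN3 at 1.16 and CDKN2D at 1.10. A 3-fold threshold left CDKN2C alone on the IP side (20.6% of all genes) and 0 on the IgG side (22.3%). Looser rules called nearly every gene. A 1.5-fold threshold called 8 on the IP side (85% of all genes) and 7 on the IgG side (78.4%), and single probes at 2-fold called 7 (86.1%) and 6 (81.1%). A rule on the scanner's p-values, with the center probe under 0.001 and a neighbor under 0.1, called 8 (85.1%) and 7 (79.8%).

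**Figure D5:**
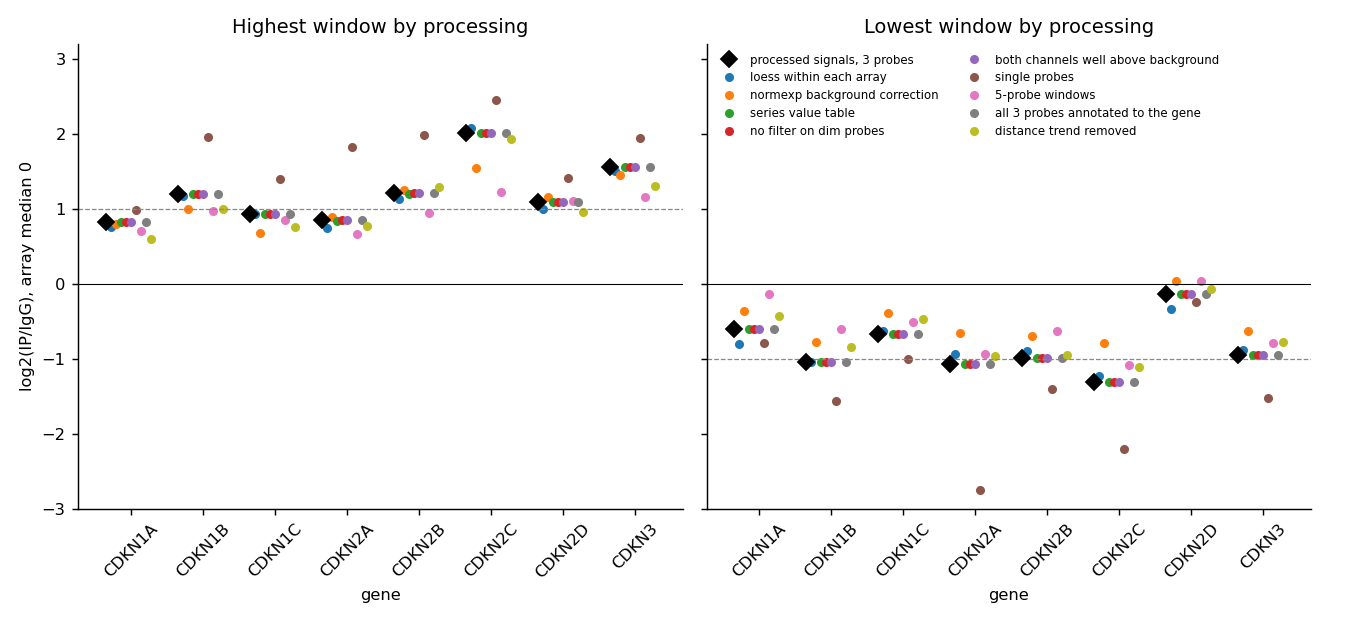
Highest (left) and lowest (right) window of each gene on the log2(IP/IgG) scale under the processing used here (black diamonds) and under each alternative (colored circles), with dashed lines at 1 and -1. CDKN2C and CDKN3 stay above 1 in every setting shown, with lows of 1.23 and 1.16, and normexp moves all lowest windows upward.

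The proteins that the inhibitors act on, or that act with them, were set beside them as a list of 33 genes: CDKs, cyclins, MNAT1, the RB and E2F families with the E2F partners TFDP1 and TFDP2, p53 and MDM2, SKP2 and CKS proteins, CDC25 phosphatases and WEE1. All 33 had a window, and CDK1 stands under its old symbol CDC2. An IP-side window was found at 25 (75.8%) and an IgG-side window at 19 (57.6%), against the 57.1% and 52.9% of all genes. Most of the list also had more windows to choose from than the median of 23 for all genes, with 9 at CDK7 to 49 at CDK6. The shares are thus not like for like. Their median highest window was 1.25, against 1.14 for the inhibitors.

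The highest windows of this list were at CCND2, WEE1 and MNAT1, and each was higher than that of any inhibitor but for MNAT1, which lay just under CDKN2C. At CCND2 (cyclin D2, a partner of CDK4 and CDK6) the window of 2.50 had its center at position -548, with probes at 1.87, 3.06 and 2.56. At WEE1, a kinase that inhibits CDK1, it was 2.38 at position -4300. At MNAT1, an assembly factor of the CDK-activating kinase, it was 1.96 at position 1571, with unlike probes of 0.43, 1.89 and 3.56. The intensities of the WEE1 and MNAT1 windows were low, above 8.25% and 3.82% of windows, whereas the CDKN2C window was above 49.6%. The lowest windows were -1.86 at CDK4, -1.84 at CKS2 and -1.76 at TFDP2. CDK4, the kinase that all INK4 proteins bind, also had a low highest window of 0.52 at position -147, higher than 13.2% of the genes of its array.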

How the data were processed

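GATA1 IP and IgG DNA from Meg-01 cells was hybridized together to each of 2 arrays with different probes. The deposited intensity values were made with Feature Extraction 9.5.3.1 under a ChIP protocol, per the file headers: processed intensities were corrected for a spatial surface and dye-normalized. The deposited log10 ratio is Cy5 over Cy3, and the deposited p-value of each ratio comes from the scanner software's error model. The authors' own peak calls were made with other software and were not used. The genome build of the array coordinates is not given in the sources used here, and other fields of the deposited files, such as the probe annotation, were used as given.

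Here log2(IP/IgG) was taken from the processed intensities and centered on the median of each array. Dropping control spots, non-uniformity outliers and probes that neither channel put well above background kept 237004 of 237210 probes on chIP1 and 236864 of 237201 on chIP2. Windows joined 3 probes with neighbors within 1000 bp. Loess and normexp (offset 50) used limma 3.58.1 in R 4.3.3, and the rest Python 3.11.15 with pandas 2.3.3. The window code was tested on simulated data with far less spread than the real probes (SD 0.97 on each array). That run checks the code and not how reliable the calls are. With 1 hybridization a probe no test was possible, and precision is limited by how few arrays there are. The members, the partner list and the thresholds were chosen with earlier results of these data known. Genes named are the 8 members, genes sharing their probes, and the 3 partners with the highest and the 3 with the lowest window. CDK4 was also described at its highest window, which was chosen after its values were seen.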

Additional observations from a re-analysis of the deposited data

How the results depend on the processing

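The count of 5 genes with an IP-side window became 3 with 5-probe windows, 8 at 1.5-fold, 1 at 3-fold and 8 by the scanner p-values. The count of 3 genes with an IgG-side window became 0 with normexp, 6 with single probes, 1 with 5-probe windows, 1 without the distance trend, 7 at 1.5-fold, 0 at 3-fold and 7 by the scanner p-values. The median highest window of 1.14 became 1.89 with single probes. The other settings (loess, the series value table, both changes of the dim-probe filter and windows wholly annotated to the gene) moved each count by at most 1.5 times and the median by less than the control spread of 0.19. Under loess 4 genes had an IP-side window and 2 an IgG-side one, since CDKN2A rose to -0.93. Of 144 single window values under an alternative, 127 kept their side of the threshold, 12 lost it, 5 gained it and 0 called values changed sign. The series value table, both filter changes and the wholly annotated windows use nearly the same values, so they could hardly change a call. All the changes came from the other settings, and 127 of 144 therefore overstates how firm the calls are. CDKN2D fell under 1 with loess (0.99) and without the distance trend (0.95), and CDKN1B (0.97) and CDKN2B (0.94) with 5-probe windows. The causes were not tested. No paired analysis was possible because each probe was on 1 array and no test was run. No replicate could be left out for the same reason. Signals were low over background, which limits dim windows most.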
